A study of Mus musculus with 4 samples.

Results

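Interferon regulatory factors (IRFs) are transcription factors that share a DNA-binding domain and bind DNA elements with repeated GAAA cores. The 9 genes described here are Irf1, Irf2, Irf3, Irf4, Irf5, Irf7, Irf8, Irf9 and Irf2bp2, the last of which encodes a corepressor that binds IRF2. Every probe set that the platform annotation pairs with 1 of these symbols alone was taken, which gave 18 of 45037 probe sets. There are 4 for Irf3, 4 for Irf2bp2, 2 each for Irf4, Irf5 and Irf8 and 1 each for Irf1, Irf2, Irf7 and Irf9. The rule that finds the probe sets uses no measured value, although the family was chosen with earlier results of these data known.

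The samples were CD4+CD25+ T-cells from lymph nodes of C57Bl/6 mice of 6 to 12 weeks, taken 3 days after intraperitoneal injection of the CD28 superagonist D665, an antibody that amplifies weak signals of the T-cell receptor. All cells were then kept overnight with antibodies to CD3 at 2 µg/ml and to CD28 at 5 µg/ml and with 200 U/ml of human IL-2, stained for IL-10 and sorted by flow cytometry. There were 2 IL-10+ samples (replicates 1 and 2) and 2 IL-10- samples (replicates 3 and 4), each on 1 Affymetrix mouse genome array, and no unstimulated sample is part of the comparison. The gate was CD4 and CD25, not Foxp3, and whether the samples of a group came from separate or pooled mice is not given in the sources used here, so each p-value reflects the spread among these 4 samples alone, and that spread may be technical.

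IRF proteins fall into groups by role. IRF3, IRF5 and IRF7 are activated by kinases downstream of sensors of foreign nucleic acid and of Toll-like receptors and induce interferon genes. IRF9 is the DNA-binding part of ISGF3, the complex that carries the type I interferon signal to DNA, while IRF1 activates and IRF2 mostly represses overlapping targets. IRF4 and IRF8 are mainly factors of lymphoid and myeloid cells that bind DNA together with partners such as PU.1 or BATF and JUN proteins, and IRF4 is induced by the T-cell receptor and is needed for effector regulatory T-cells (Tregs) in mice.

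The deposited values are variance-stabilized and are read here as log2. The base of the logarithm is not stated for the table, and a figure legend of the study calls its differences natural logarithms. If the values were natural logarithms, the difference of each probe set would be larger, for example -0.92 in place of -0.64 for Irf1 and 1.35 in place of 0.94 for the dimmer probe set of Irf4, with the same calls at an adjusted p under 0.05. A difference is the mean of the IL-10+ arrays less that of the IL-10- arrays. A probe set is called higher or lower at an adjusted p under 0.05 from limma, adjusted over all 45037 probe sets.

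The median of an array was 6.41 for both IL-10+ replicates, 6.35 for replicate 3 and 6.31 for replicate 4. Il10, the gene of the sorted cytokine, had 12.01 ± 0.01 in sorted IL-10+ cells (SD, n = 2), against 10.39 ± 0.03 in IL-10- cells (SD, n = 2). Of 8 T-cell and Treg markers, 2 were higher, 2 lower and 4 not called, and Foxp3, the defining factor of Tregs, had 10.83 in IL-10+ cells, against 11.55 in IL-10- cells. For 4 poly-A transcripts spiked into the RNA, the probe sets nearest the 5' end read 0.68 to 2.16 higher with IL-10+ RNA (median 1.22), and those at the 3' end differed by -0.22 to 0.17 (median 0.04). The array's control probe sets for mouse transcripts went the same way, with 1.12 at the 5' end and 0.40 at the 3' end of beta-actin, and 0.88 and 0.02 for Gapdh.

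Of the 18 probe sets, 6 were lower in IL-10+ cells, 1 was higher and 11 were not called. Over all probe sets, 16.2% were called lower and 13.6% higher, 29.8% in all. The count of lower probe sets was 3 without IL-10+ replicate 1, and that of higher ones was 2 without IL-10- replicate 3, without IL-10- replicate 4 or with quantile normalization. The brightest probe set of a gene is the one with the highest mean over the 4 arrays. By brightest probe sets, Irf1, Irf3, Irf4, Irf7, Irf8 and Irf2bp2 were lower, none of the 9 genes was higher, and Irf2, Irf5 and Irf9 were not called. For the brightest probe sets of all 18193 genes, 22.9% were called lower and 8.37% higher. The median difference was -0.32 over the brightest probe sets of the 9 genes and -0.01 over those of all genes, while it was -0.17 over the 5601 probe sets whose mean reached 9. The groups did not overlap for 7 probe sets that were lower and 5 that were higher in IL-10+ cells, against 30.5% and 32.5% of all probe sets. With 2 arrays against 2, an exact permutation test of 1 probe set cannot go below p = 0.333, so the calls rest on the spread that limma shares across probe sets. None of the 18 passed the study's threshold of an adjusted p under 0.001 with a log2 difference of at least 1, which 2.3% of all probe sets did. If the values were natural logarithms, 1 would pass, the dimmer probe set of Irf4.

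**Figure D1:**
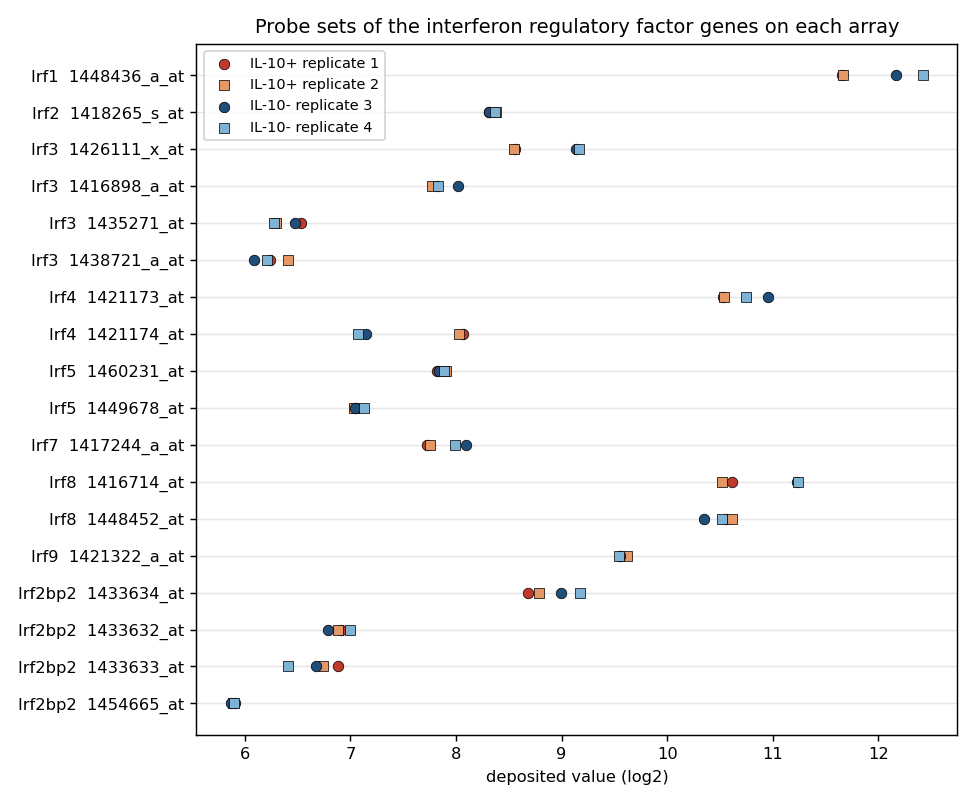
Deposited values (log2, horizontal axis) of the 18 probe sets on the 4 arrays, with circles and squares for the replicates of a group (IL-10+ in red and orange, IL-10- in blue). The IL-10+ arrays lie below both IL-10- arrays for Irf1 (11.65 and 11.66 against 12.17 and 12.42) and above both for the dimmer probe set of Irf4 (8.07 and 8.03 against 7.15 and 7.07).

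Irf1, an activator that interferon gamma induces, was lower in IL-10+ cells. Its only probe set, 1448436_a_at, stood at 11.65 and 11.66 on the IL-10+ arrays and at 12.17 and 12.42 on the IL-10- arrays. The groups did not overlap, and the IL-10- arrays were further apart than the IL-10+ arrays. The difference was -0.64 (standard error 0.09, adjusted p = 0.00127 from limma), 1.55-fold lower on the log2 reading. Fewer cells that express a gene and less of its RNA per cell cannot be told apart in such sorted bulk samples, here and for each gene below.

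Irf2, the relative of Irf1 that occupies the same elements, was not called. Its probe set 1418265_s_at had 8.31 and 8.38 in IL-10+ cells, against 8.31 and 8.37 in IL-10- cells, a difference of 0.01 (standard error 0.07, adjusted p = 0.943), and the groups overlapped. Irf2bp2, the partner of IRF2, was lower in its brightest probe set, from 8.99 and 9.17 in IL-10- to 8.68 and 8.79 in IL-10+ samples (difference -0.34, standard error 0.08, adjusted p = 0.0157). This probe set is 1433634_at, and its groups did not overlap. Without IL-10+ replicate 1 this call was lost (-0.29, adjusted p = 0.111). The other 3 probe sets of Irf2bp2 differed by 0.27 (1433633_at, adjusted p = 0.0786), 0.00 (1433632_at) and 0.01 (1454665_at). The first of these had 6.88 and 6.74 in IL-10+ cells, against 6.67 and 6.41 in IL-10- cells, and was called higher without IL-10- replicate 3 (0.40, adjusted p = 0.0016). The dimmest lay between 5.87 and 5.91 on the 4 arrays, below the median of each array. Averaged over the 4 probe sets, Irf2bp2 differed by -0.01 (adjusted p = 0.875). Among its relatives, Irf2bp1 was lower (-0.39, adjusted p = 0.00264), and Irf2bpl differed by -0.04 (adjusted p = 0.828).

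RefSeq start sites gave promoter windows, from 250 bases before to 50 after the start, for all 9 genes (12 windows, build GRCm38.p6). These were searched on both strands for AANNGAAA (the core of IRF elements), TTCNNNGAA (the STAT-binding GAS element) and TGANTCA (AP-1). Matches fell in windows of 3 genes, Irf1, Irf8 and Irf2. Their 250 bases before the start are shown because Irf1 and the brightest probe set of Irf8 were lower in IL-10+ cells while Irf2 was not called. All 3 are on the plus strand, and capitals mark the matches. The windows are chr11:53769764-53770013 for Irf1, chr8:120736108-120736357 for Irf8 and chr8:46739495-46739744 for Irf2.
Irf1: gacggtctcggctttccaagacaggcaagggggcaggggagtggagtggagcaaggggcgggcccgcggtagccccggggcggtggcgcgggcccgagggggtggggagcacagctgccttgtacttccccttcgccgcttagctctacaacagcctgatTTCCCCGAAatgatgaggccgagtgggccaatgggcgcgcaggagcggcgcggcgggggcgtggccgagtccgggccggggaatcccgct
Irf8: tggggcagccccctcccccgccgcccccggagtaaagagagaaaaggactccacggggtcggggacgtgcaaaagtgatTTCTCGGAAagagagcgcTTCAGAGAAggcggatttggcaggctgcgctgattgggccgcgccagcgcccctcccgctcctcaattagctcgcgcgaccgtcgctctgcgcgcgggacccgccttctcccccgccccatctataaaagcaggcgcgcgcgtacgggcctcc
Irf2: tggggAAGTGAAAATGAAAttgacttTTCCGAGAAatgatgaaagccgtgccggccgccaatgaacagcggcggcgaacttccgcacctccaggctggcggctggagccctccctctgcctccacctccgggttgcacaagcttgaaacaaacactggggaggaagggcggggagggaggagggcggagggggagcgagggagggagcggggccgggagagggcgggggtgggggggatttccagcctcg

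The Irf1 window holds 1 GAS match (TTCCCCGAA, first base 90 before the start). The Irf8 window holds 2 (TTCTCGGAA and TTCAGAGAA, 171 and 153 bases before the start). The Irf2 window holds a GAS match (TTCCGAGAA, 224 before) and 2 matches to the IRF core that overlap each other (AAGTGAAA and AAATGAAA, 245 and 239 before). Of 32851 promoter windows of this length, 8.3% hold a GAS match, 23.9% a match to the IRF core and 7.81% an AP-1 match. A match is a description of the letters and not a measured site. GAS matches stood in a gene that was lower, in one with a lower and an uncalled probe set, and in one that was not called.

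Irf3, the kinase-activated inducer of interferon beta that is present before stimulation, had 1 probe set lower and 3 not called. The brightest, 1426111_x_at, was at 8.56 and 8.55 in IL-10+ cells, against 9.14 and 9.16 in IL-10- cells. The arrays of each group lay close together, and the groups differed by -0.60 (standard error 0.06, adjusted p = 0.000327). This probe set carries the suffix x, which marks probes that can also match other sequences. The second, 1416898_a_at, had 7.82 and 7.77 in IL-10+ cells, against 8.02 and 7.83 in IL-10- cells, and the dimmest, 1438721_a_at, had 6.24 and 6.41 against 6.09 and 6.21. Neither overlapped between the groups, and they lay on opposite sides of 0. The remaining one, 1435271_at, overlapped, with 6.53 and 6.30 against 6.48 and 6.28. In order of brightness the 3 dimmer probe sets of Irf3 differed by -0.13 (adjusted p = 0.304), 0.04 (adjusted p = 0.847) and 0.18 (adjusted p = 0.154), the first of them being called lower without IL-10- replicate 4 (-0.22, adjusted p = 0.0448). The mean over all 4 differed by -0.13 (adjusted p = 0.109).

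Irf7, the interferon-inducible amplifier of type I interferon production, was lower in IL-10+ cells, its probe set 1417244_a_at having 7.73 and 7.75 against 8.09 and 7.99. The groups did not overlap. The difference was -0.30 (standard error 0.07, adjusted p = 0.011 from limma). It did not pass without IL-10+ replicate 1 (-0.29, adjusted p = 0.0796) or replicate 2 (-0.31, adjusted p = 0.0633). Irf5, which acts downstream of MyD88, was not called in either probe set. The brighter one, 1460231_at, had 7.82 and 7.91 in IL-10+ cells, against 7.84 and 7.89 in IL-10- cells, a difference of 0.00 (adjusted p = 0.985). The dimmer one, 1449678_at, had 7.04 and 7.03 against 7.04 and 7.13, a difference of -0.05 (adjusted p = 0.653), and both overlapped between the groups. Irf9 (1421322_a_at), the DNA-binding subunit of ISGF3, had 9.55 and 9.62 in IL-10+ cells, against 9.55 and 9.54 in IL-10- cells. Its difference was 0.04 (standard error 0.06, adjusted p = 0.706).

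Irf8, known from B cells, dendritic cells and macrophages and also expressed by activated T-cells, was lower in 1 of 2 probe sets. The brighter one, 1416714_at, had 10.61 and 10.52 in IL-10+ cells, against 11.23 and 11.24 in IL-10- cells, a difference of -0.67 (standard error 0.07, adjusted p = 0.000265), 1.59-fold lower. The other, 1448452_at, had 10.56 and 10.61 against 10.35 and 10.52, a difference of 0.15 (standard error 0.08, adjusted p = 0.204). Quantile normalization made it a higher call (0.27, adjusted p = 0.0166), as did leaving out IL-10- replicate 4 (0.23, adjusted p = 0.0365). The annotation ties both probe sets to the same sequence record, so they read the same gene at places that the table does not give. The mean over both differed by -0.26 (adjusted p = 0.00938 among gene means).

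Irf4 was lower in its brightest and higher in its dimmer probe set. The brightest, 1421173_at, had 10.53 and 10.54 in IL-10+ cells, against 10.95 and 10.75 in IL-10- cells. Its difference of -0.32 (standard error 0.08) passed at an adjusted p of 0.0218, but not after quantile normalization (-0.20, adjusted p = 0.154), without IL-10+ replicate 1 (-0.31, adjusted p = 0.0946) or without IL-10+ replicate 2 (-0.32, adjusted p = 0.0909). The dimmer one, 1421174_at, had 8.07 and 8.03 in IL-10+ cells, against 7.15 and 7.07 in IL-10- cells, so that the groups were separated by far more than their spread. Its difference of 0.94 (standard error 0.07, adjusted p = 6.4e-05) was 1.92-fold and stayed between 0.86 and 0.98 under median centring, quantile normalization and with each array left out. Both probe sets come from the same sequence record. The mean over both was higher by 0.31 (adjusted p = 0.00774 among gene means), the opposite of the brightest alone. Of 9010 genes with several probe sets, 1078 (12.0%) had one called higher and another called lower.

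**Figure D2:**
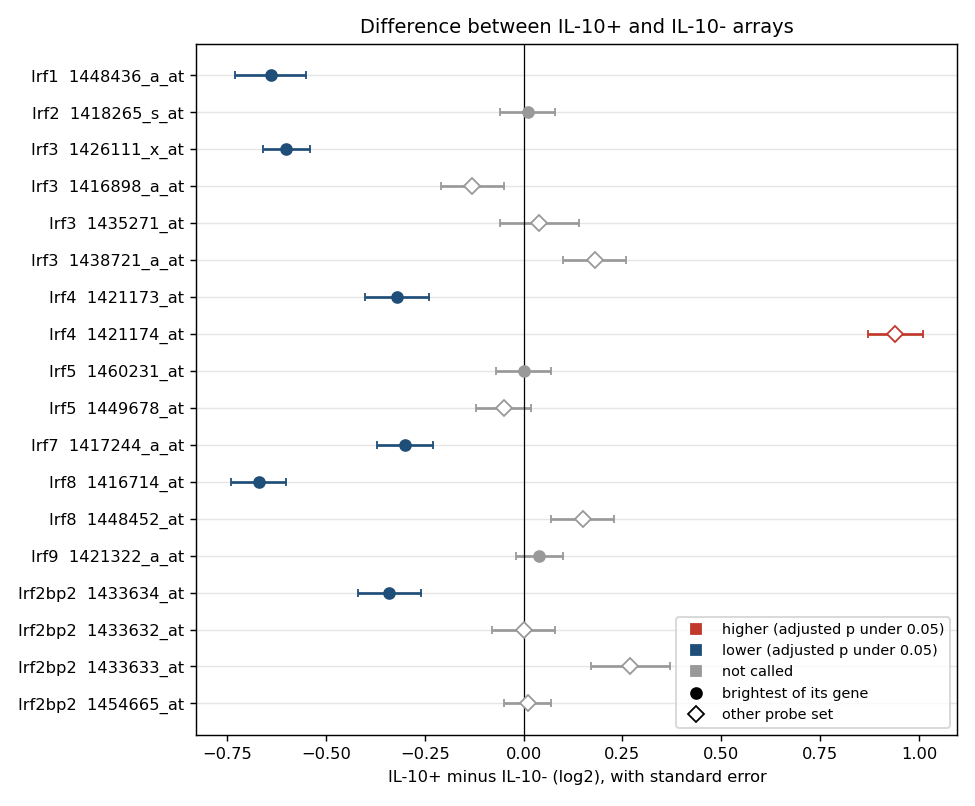
Mean of the IL-10+ arrays less that of the IL-10- arrays for each probe set (log2, horizontal axis), with standard errors from limma. The called probe sets are coloured (red higher, blue lower), filled circles are the brightest of each gene, and the probe sets of Irf4 lie at -0.32 and 0.94.

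The gap between the probe sets of Irf4 differed between the groups on every array. The dimmer minus the brightest was -2.47 and -2.51 in IL-10+ and -3.80 and -3.68 in IL-10- samples, a shift of 1.25. For Irf8 the same gap was -0.05 and 0.09 in IL-10+ and -0.87 and -0.73 in IL-10- samples, a shift of 0.82. In Irf3 the 3 dimmer probe sets shifted by 0.47 to 0.78 and in Irf2bp2 by 0.35 to 0.62, while in Irf5 the shift was -0.05. Thus 8 of 9 dimmer probe sets of these genes had a difference above that of the brightest, with a median shift of 0.62. Over all genes it was 61.1% of 16752 dimmer probe sets, with a median shift of 0.08. The 9 shifts are not separate observations. The 3 of Irf3 share 1 brightest probe set (-0.60), and so do the 3 of Irf2bp2 (-0.34). Besides, 1435271_at and 1438721_a_at of Irf3 and 1454665_at of Irf2bp2 lay near or below the array medians. They differed by only 0.04, 0.18 and 0.01, so their shifts came mostly from the brightest probe sets. The spiked poly-A transcripts read higher with IL-10+ RNA by 1.22 (median) at their 5' ends and by 0.04 at their 3' ends, and the cells' own beta-actin and Gapdh by 1.12 and 0.88 at their 5' ends and by 0.40 and 0.02 at their 3' ends. The positions of the IRF probe sets within their transcripts are not in the tables used here, and the part of this 5' difference in the shifts was not tested.

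Irf4 and Irf8 are also factors of B cells, plasma cells and myeloid cells. Of 9 measured B cell markers 5 were lower and 0 higher in IL-10+ samples (3 lower when probe sets below the median were left out), and their summed log2 values were 55.5 to 55.8 in IL-10+ cells, against 59.9 to 60.9 in IL-10- cells. Of 6 plasma cell markers 5 were lower, with sums of 46.0 to 46.1 against 58.0, Igha, the constant chain of IgA, having 7.21 and 12.66. The defining B cell genes Pax5 and Ebf1 lay below the array medians on all arrays, and Cd79b, a chain of the B cell receptor, had 7.10 in IL-10+ cells, against 8.16 in IL-10- cells. Of 12 markers of dendritic cells and macrophages 3 were higher and 0 lower, with sums of 74.9 to 75.1 against 73.7 to 73.9. Fewer were higher without IL-10+ replicate 1 or 2, and 2 were higher when probe sets below the median were left out. Most of the 12 lay near or below the array medians, and Xcr1, called higher, lay below them on all arrays. Of 5 markers of CD8 T-cells and NK cells 3 were lower, with sums of 32.1 to 32.4 against 33.8 to 34.1. The part of these cells in the differences of Irf4 and Irf8 was not tested.

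The lists of related genes are described by the brightest probe set of each gene, beside the 22.9% called lower and 8.37% called higher over all genes. Many of these genes have other probe sets, for example 4 for Nfatc1 and 5 each for Nfatc2 and Maf. Those are not described here and could differ in call or sign, as the probe sets of Irf4 do. DNA-binding partners of IRF4 and IRF8 went both ways, with 3 of 12 higher and 4 lower. Without IL-10+ replicate 2 the lower ones were 2. Nfatc1, a calcium-regulated factor of T-cell activation, was higher by 0.89 (adjusted p = 0.000283) and Jun, a subunit of AP-1, by 0.79 (adjusted p = 0.000158). Batf, which recruits IRF4 to composite AP-1 elements, had 11.57 and 11.66 in IL-10+ against 11.30 and 11.19 in IL-10- samples (0.37, adjusted p = 0.00667, and 0.0604 without IL-10+ replicate 2). Spib, an ETS factor of B cells and plasmacytoid dendritic cells, was called lower, with 6.89 in IL-10- cells and values below the array medians in IL-10+ cells, so that the size of its difference is not given. Nfatc2 differed by -0.52 (adjusted p = 0.000853). Spi1, which encodes PU.1, differed by -0.19 (adjusted p = 0.2, and 0.0449 without IL-10+ replicate 1).

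In a list of effector Treg genes linked to IRF4, 4 of 7 were higher and 1 lower (median 0.39 against -0.01 over all genes). The count and the median include Il10, whose direction the sort fixed in advance. Those higher were Il10, on which the cells were sorted, the chemokine receptor gene Ccr8 (0.89, adjusted p = 8.33e-05), the transcription factor gene Maf (0.73, adjusted p = 0.000148) and Prdm1, which encodes Blimp-1 (0.39, adjusted p = 0.0146). The call of Prdm1 was lost without IL-10+ replicate 1 (adjusted p = 0.0604) or 2 (adjusted p = 0.0561). Klrg1, a receptor of terminally differentiated lymphocytes, was lower (-1.60, adjusted p = 4.68e-05). Icos differed by 0.17 and Tnfrsf9 by 0.13, and neither was called. With quantile normalization both were called higher (0.29, adjusted p = 0.0104, and 0.25, adjusted p = 0.0197), which made 6 of 7.

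Upstream of IRF3, IRF5 and IRF7, 7 of 15 genes were lower and 4 higher (median -0.05). With probe sets below the median left out 6 were lower, and with quantile normalization 5 were higher. Tlr7, called lower, lay below the array medians on all arrays. Its call was lost without IL-10+ replicate 1, IL-10+ replicate 2 or IL-10- replicate 4. The lower ones with the largest differences were the kinase gene Irak1 (-0.71), the adaptor genes Mavs (-0.64) and Ticam1 (-0.62), the ubiquitin ligase gene Traf6 (-0.55) and the kinase gene Ikbke (-0.50). The probe sets used for Irak1 and Mavs carry the suffix x, so their probes can also match other sequences. Irak1 has 3 other probe sets, Mavs 1 and Traf6 4, which are not described here. The higher ones were the RNA sensors Ifih1 (1.28, adjusted p = 2.14e-05) and Ddx58 (0.34), and Tank (0.75) and Azi2 (0.50), scaffolds of the kinase TBK1. Tbk1 itself differed by 0.09 (adjusted p = 0.614, and 0.0209 without IL-10- replicate 4). Ifih1, which encodes MDA5, stood at 10.63 and 10.64 in IL-10+ cells, against 9.32 and 9.40 in IL-10- cells. Among 9 measured genes for proteins that act on IRFs or on their upstream signals, 6 were lower and 0 higher, including Swap70 (-0.78), Rbck1, whose product promotes IRF3 degradation in human cells (-0.68), Trim21, a ubiquitin ligase of IRF3 and IRF8 (-0.40), and Fkbp5 (-0.85).

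Of 8 receptor and ISGF3 signalling genes other than Irf9, 4 were lower and 1 higher (2 lower without IL-10+ replicate 1 and 2 higher without IL-10- replicate 4). Jak2 (-0.49), Jak1 (-0.39) and Tyk2 (-0.38, not called without IL-10+ replicate 1, adjusted p = 0.0558) encode the kinases of interferon receptors, and Ifngr1 a chain of the interferon gamma receptor (-0.26). The call of Ifngr1 was lost under quantile normalization and when IL-10+ replicate 1, IL-10+ replicate 2 or IL-10- replicate 4 was left out (adjusted p from 0.101 to 0.207). Stat2, the partner of IRF9, was higher, with 7.42 and 7.63 against 7.04 and 6.71 (0.65, adjusted p = 0.00501).

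Of 18 type I interferon response genes, the targets of ISGF3 and IRF7, 8 were lower and 0 higher (1 higher with quantile normalization, and likewise when IL-10- replicate 4 was left out), with a median of -0.12. The largest difference was that of Usp18, which restrains the type I interferon receptor (-1.56, adjusted p = 2.35e-05), followed by Rtp4 (-0.71), Parp14 (-0.56), Dhx58, a regulator of RNA sensors (-0.54), and Trim30a (-0.44). Bst2 was well above the array medians and not called, with 8.83 in IL-10+ cells, against 8.86 in IL-10- cells (-0.03). The same held for Xaf1, with 8.74 against 8.83 (-0.09), and for Isg20, with 11.96 against 11.77 (0.18). Isg20 was called higher with quantile normalization (0.32). Ifit3 (0.08), Mx1 (-0.02), Oas2 (-0.04) and Rsad2 (0.07) were not called either. Their group means ran from 5.56 to 6.57, near or below the array medians of 6.31 to 6.41. At such levels a missing call does not show that a gene was unchanged. Ifit1, which was called lower, also lay below the medians on all arrays. When probe sets below the median were left out, 7 of these response genes were lower. Of 15 genes of the interferon gamma and IRF1 response, 9 were lower and 2 higher, with a median of -0.32. With quantile normalization 7 were lower, as Gbp3 (-0.17) and Igtp (-0.17) lost their calls. Fewer genes were called in either direction without IL-10+ replicate 1 or 2, where Gbp3 and Igtp were again not called. Those lower included the immunoproteasome subunits Psmb9 (-0.72), Psmb8 (-0.69) and Psmb10 (-0.56), the activator of MHC class I genes Nlrc5 (-0.69), the peptide transporter gene Tap1 (-0.67) and the chemokine gene Cxcl10 (-0.66). The 2 that were higher were Socs1, an inhibitor of JAK kinases (0.65, adjusted p = 0.0186), and the GTPase gene Irgm1 (0.30, adjusted p = 0.0114, and 0.0867 and 0.0602 without IL-10+ replicate 1 and 2). B2m, the light chain of MHC class I, differed by 0.00 (adjusted p = 0.996).

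**Figure D3:**
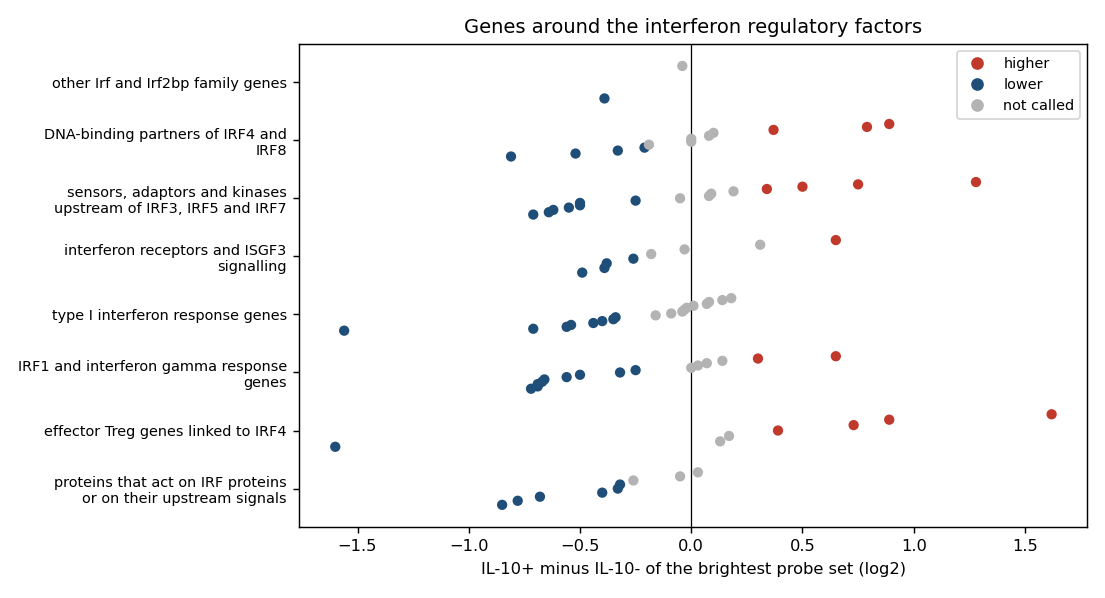
IL-10+ less IL-10- value (log2, horizontal axis) of the brightest probe set of each gene, by list, with 1 point per gene (red higher, blue lower, grey not called). The lists of interferon response genes hold 8 and 9 lower genes, with Usp18 at -1.56.

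Genes whose values over the 4 arrays were closest to those of a member were found by the root mean square distance of mean-centred brightest probe sets, over 18192 genes. For Irf1 they were Ndufa7, Itga6 and Ptch1, with distances of 0.00892 to 0.0103, for Irf8 Fgd3, Nop2 and Klhdc3, for Irf3 Colgalt1, Got2 and Prps2, for Irf7 Slc39a11, Zfp346 and Ikzf5, for Irf4 Tesk1, AI413582 and Gtf3a, and for Irf2bp2 Trim5, Panx1 and Nr1d2. Over 4 arrays many genes lie close, with 927 genes within 0.1 of Irf1 and 1739 within 0.1 of Irf4, and for Irf2, Irf5 and Irf9 it was 9252 to 9751 genes.

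**Figure D4:**
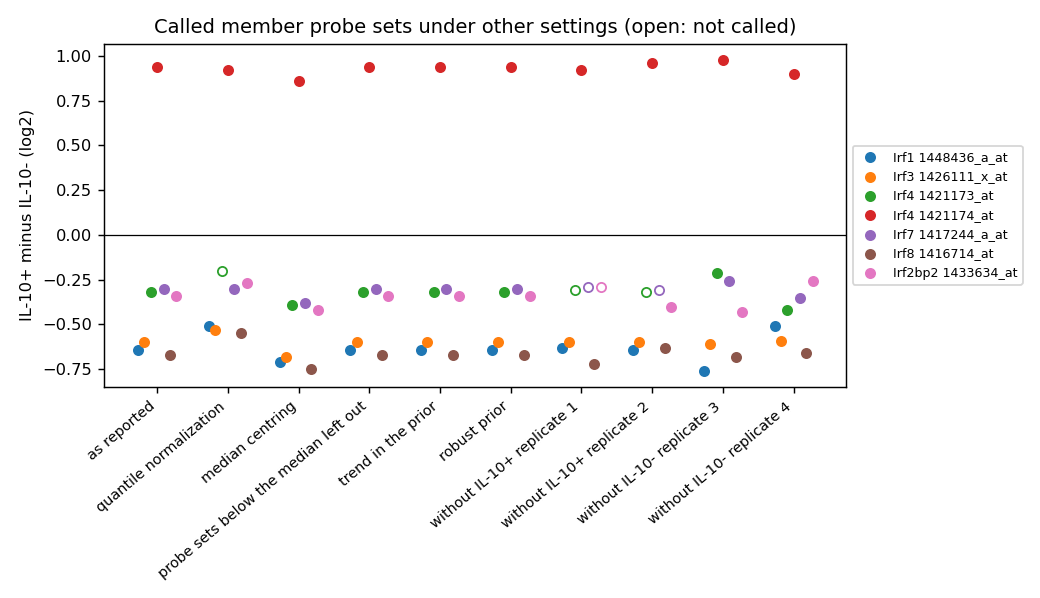
Differences (log2, vertical axis) of the 7 called probe sets as reported and under the other settings named on the horizontal axis, filled where the adjusted p was under 0.05 and open where it was not. The dimmer probe set of Irf4 stays between 0.86 and 0.98, and the open points belong to the brightest of Irf4, Irf7 and Irf2bp2.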

How the data were processed

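The authors extracted total RNA with TRIZOL, hybridized 1 Affymetrix GeneChip Mouse Genome 430 2.0 array per sample and normalized the signals by variance stabilization; each deposited value stands for 1 probe set and was read as log2, and how probes were summarised is not given in the sources used here. Per the labels, labelling began from 100 ng of total RNA, and the study's methods give another amount. Of 45101 probe sets, 64 controls were set aside. limma 3.58.1 in R 4.3.3 (lmFit, eBayes, two-sided moderated test, Benjamini-Hochberg) compared the groups, with 5.44 prior and 2 residual degrees of freedom. It was first tested on simulated data. Gene names are those of GEO's annotation of the array, which may be outdated: 34945 probe sets have 1 gene, 932 several and 9160 no entry, and 0 probe sets name a member beside other genes. For lists, the brightest probe set represented a gene and up to 5 called members by size of difference were named, and some others were named after their values were seen. Some listed genes were not analysed here. Members, lists and markers were chosen with earlier results of these data known. Promoters are from RefSeq, GRCm38.p6. The motifs reported were chosen after these windows had been searched for a longer set, which also held the full interferon-stimulated response element, the PU.1 and IRF composite element and an NF-kB site. Alternatives were quantile normalization, median centring, a filter on dim probe sets, a trend or robust prior, each array left out, the natural logarithm, the study's threshold and the mean over probe sets. The 4 arrays limit the precision. Python 3.11.15 with matplotlib 3.10.9 drew the figures.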

Additional observations from a re-analysis of the deposited data

Results flagged for a closer look

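A signal in the control probe sets, which the comparison does not use, drew attention. Spiked poly-A transcripts, which are not of mouse origin, read higher at their 5' ends with IL-10+ RNA by 1.22 (median of 4 transcripts). The control probe sets for the cells' own beta-actin and Gapdh differed in the same direction at their 5' ends, by 1.12 and 0.88. Their part in the unequal differences of the Irf4 and Irf8 probe sets was not tested.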

How the results depend on the processing

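Of the 18 probe sets, 6 were lower and 1 higher. Leaving out 1 array gave 3 to 7 lower, the lowest without IL-10+ replicate 1, and 1 to 2 higher. Quantile normalization gave 2 higher. The study's threshold left 0 lower and 0 higher, and on the natural logarithm, a setting chosen after seeing the data, 0 lower and 1 higher. The differences of Irf1, the brightest probe sets of Irf3 and Irf8, and the dimmer one of Irf4 kept their direction and call in every refit at an adjusted p under 0.05. Probe sets that were not called changed sign near 0. After median centring, which lowers all differences by 0.08, Irf2 differed by -0.07, the brighter probe set of Irf5 by -0.07, Irf9 by -0.04, 1 dim probe set of Irf3 by -0.04 and 2 of Irf2bp2 by -0.07 and -0.06. After quantile normalization the last 3 were at -0.04, -0.06 and -0.04. With 1 array left out, Irf2 ran from -0.03 to 0.04, Irf5 from -0.04 to 0.05, the dim probe set of Irf3 from -0.08 to 0.15 and that of Irf2bp2 from -0.10 to 0.11. Averaging all probe sets of a gene put Irf4 at 0.31 and Irf5 at -0.02. The same averaging removed the calls of Irf3 (-0.13) and Irf2bp2 (-0.01), while Irf8 stayed lower (-0.26). Over all probe sets, 7307 were lower (4676 without IL-10+ replicate 1) and 6133 higher (3994 without IL-10+ replicate 2), and median centring gave 10076 lower and 4668 higher. The causes were not tested. An arm with 1 array left is assumed to vary like the other. Values near or below the array medians carry little signal over background. No paired analysis was possible because the groups share no replicate number. Whether an IL-10+ and an IL-10- sample came from the same sort is not given in the sources used here. The unpaired test may therefore pass over a pairing. The filter on dim probe sets left out 1 probe set of Irf3 and 1 of Irf2bp2.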
